A study of Mus musculus with 6 samples.

Results

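The vacuolar ATPase and its neighbours in the lysosomal membrane were followed in heart muscle cells that lack TFEB. They were represented by 31 genes, chosen by gene name: 8 subunits of the membrane sector V0 of the pump, 8 subunits of its cytosolic sector V1, 2 accessory subunits, 8 other proteins of lysosomal membranes and lysosomal lipid export, and the 5 subunits of Ragulator. All 31 were found among the 46450 gene symbols measured, and all 31 were among the 12437 genes abundant enough to be tested. Messenger RNA was read in cardiomyocytes, the beating muscle cells of the heart, isolated from hearts of C57BL/6 mice aged 3 months. The groups were 3 TFEB-/- libraries and 3 wild-type (WT) libraries, numbered 1 to 3 in each. How the Tfeb deletion was made, whether it is limited to certain cells, and the sex of the mice are not given in the sources used here. Nothing states that each library came from a separate animal, so p-values measure the spread between these libraries, which may be technical. Values are CPM, in which every library is scaled to the same total, and are whole numbers. Each ± gives the SD (n = 3 libraries). Unless stated otherwise p-values come from limma, a linear model fitted across all genes. Where a gene is called most or least abundant, this is by CPM not divided by length.

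The vacuolar ATPase is a rotary proton pump. Its V1 sector splits ATP and turns a central stalk, and the stalk drives a ring of proteolipid subunits in the V0 sector that carries protons across the membrane, so the lumen of lysosomes becomes acid. The heavily glycosylated proteins Lamp1 and Lamp2 line the lysosomal membrane, Mcoln1 releases calcium from the lumen, Npc1 and Npc2 pass cholesterol out of it, and Ragulator holds the Rag GTPases and with them the growth kinase mTORC1 on its surface. TFEB is a basic helix-loop-helix factor known for binding CLEAR elements, short E-box sequences in front of many lysosomal genes, and heart muscle relies on lysosomes and autophagy to renew its organelles.

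Because TFEB binds E-boxes, the promoters of the members are shown first. RefSeq promoters (mouse build GRCm38.p6, 250 bases before to 50 bases after the start of the transcript) were found for 24 of the 31 members, several for some genes. They were searched on both strands for TCACGTG, the centre of the CLEAR element, which reads CACGTGA on the other strand. The motif was present in 9 of the 24 members (37.5%), against 4.29% of the 27025 genes in the promoter table and 7.01% of the 9399 tested genes with a promoter. Each stretch holding a motif is given 5′ to 3′ on the strand of the gene, with up to 20 bases on either side and the motif in capitals. Where TCACGTG and CACGTGA overlap, the capitals read TCACGTGA.
Atp6v0b, chr4:117887322-117887386, minus strand: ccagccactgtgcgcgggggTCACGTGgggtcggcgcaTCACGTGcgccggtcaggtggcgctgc
Atp6v0d1, chr8:105566041-105566088, minus strand: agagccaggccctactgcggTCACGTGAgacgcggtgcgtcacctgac
Atp6v0e, chr17:26676378-26676425, plus strand: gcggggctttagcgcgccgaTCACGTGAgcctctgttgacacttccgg
Atp6v1a, chr16:44139364-44139411, minus strand: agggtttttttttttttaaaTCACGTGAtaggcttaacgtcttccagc
Lamp1, chr8:13159079-13159171, plus strand: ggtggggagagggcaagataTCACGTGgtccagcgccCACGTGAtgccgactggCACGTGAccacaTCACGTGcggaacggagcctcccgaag
Mcoln1, chr8:3500427-3500500, plus strand: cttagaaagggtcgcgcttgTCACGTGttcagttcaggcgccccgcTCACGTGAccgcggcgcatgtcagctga
Cln3, chr7:126583331-126583405, minus strand: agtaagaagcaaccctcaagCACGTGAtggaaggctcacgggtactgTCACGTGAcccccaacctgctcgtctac
Lamtor1, chr7:101905748-101905794, plus strand: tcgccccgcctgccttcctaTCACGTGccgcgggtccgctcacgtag
Lamtor4, chr5:138255342-138255403, plus strand: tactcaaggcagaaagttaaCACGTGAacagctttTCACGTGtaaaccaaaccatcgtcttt
Lamp1 had the most copies, 4, with cores CACGTG that begin at positions -61, -45, -28 and -15 from the transcript start, while Atp6v0b, Lamtor4, Cln3 and Mcoln1 had 2 each and the other 4 genes had 1. The palindrome TCACGTGA, which is the motif on both strands at once, was present in 5 of the 24 members, against 1.12% of all genes in the promoter table and 2.18% of the tested ones. The shorter E-box CACGTG was present in the same 9 members, against 8.09% of all genes and 11.8% of the tested ones. A match is a description of the letters and does not show binding.

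**Figure D1:**
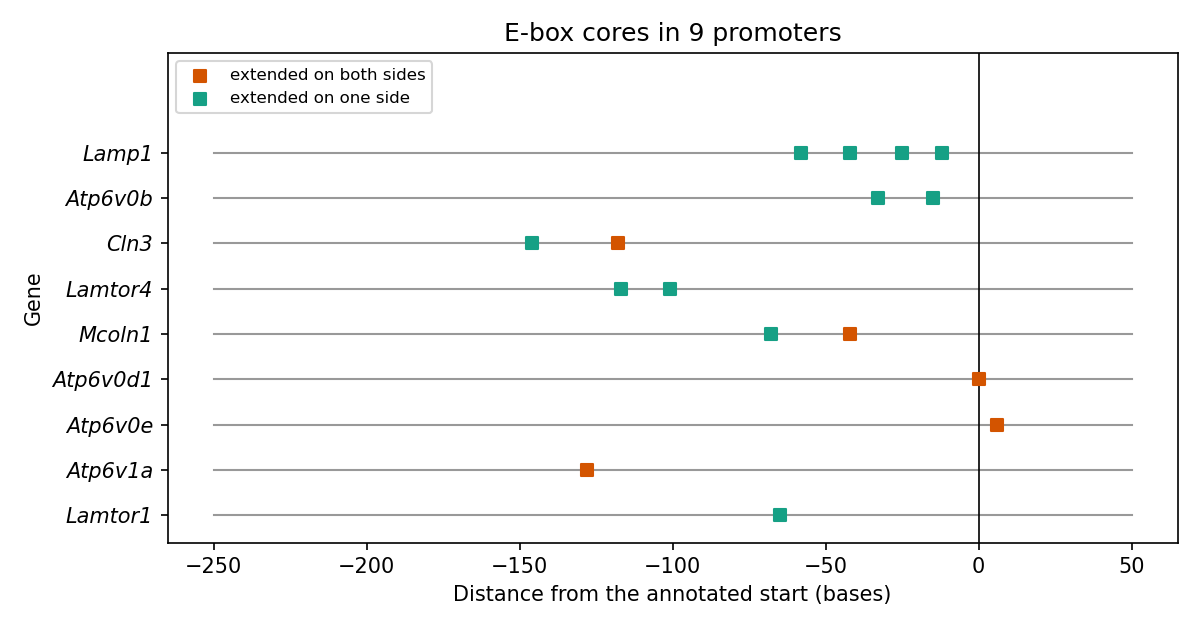
Positions of TCACGTG or CACGTGA in the promoters of the 9 members that hold it. Each square is drawn at the centre of the core CACGTG, in orange where it is extended to TCACGTGA and in green where it is extended on one side, against the distance in bases from the RefSeq transcript start. The first bases of the cores lie between positions -149 (Cln3) and 3 (Atp6v0e), and Lamp1 has 4 cores.

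Of the other 15 members with a promoter in the table, 3 are printed whole because their values are described below: Atp6v0e2, the paralog of Atp6v0e, Atp6v1d, which had the smallest p among members with higher values in TFEB-/-, and Lamp2, the paralog of Lamp1, which had the smallest p among members with lower values. None of the 3 windows holds TCACGTG or CACGTG, so they stand in lower case throughout.
Atp6v0e2, chr6:48537319-48537618, plus strand: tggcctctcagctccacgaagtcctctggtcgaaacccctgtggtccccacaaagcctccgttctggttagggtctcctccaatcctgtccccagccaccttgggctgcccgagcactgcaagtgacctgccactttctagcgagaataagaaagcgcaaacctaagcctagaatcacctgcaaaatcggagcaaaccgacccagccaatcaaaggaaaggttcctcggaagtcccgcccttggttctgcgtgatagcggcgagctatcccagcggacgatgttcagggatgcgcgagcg
Atp6v1d, chr12:78861589-78861888, minus strand: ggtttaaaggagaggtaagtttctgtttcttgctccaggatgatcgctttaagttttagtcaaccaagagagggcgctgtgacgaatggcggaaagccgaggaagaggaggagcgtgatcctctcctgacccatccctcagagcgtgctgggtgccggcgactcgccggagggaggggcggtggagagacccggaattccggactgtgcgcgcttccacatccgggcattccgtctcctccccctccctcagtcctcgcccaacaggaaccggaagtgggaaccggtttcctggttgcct
Lamp2, chrX:38456411-38456710, minus strand: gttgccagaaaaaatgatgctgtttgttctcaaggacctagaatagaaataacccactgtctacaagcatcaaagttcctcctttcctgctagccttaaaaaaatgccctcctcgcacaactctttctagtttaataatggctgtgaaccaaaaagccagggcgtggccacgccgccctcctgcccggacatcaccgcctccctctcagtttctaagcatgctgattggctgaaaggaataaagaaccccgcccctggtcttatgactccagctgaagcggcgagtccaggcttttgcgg

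Tfeb itself was at 6, 5 and 7 CPM in TFEB-/- and at 17, 30 and 23 CPM in WT (log2 fold change -1.85, SE 0.24, limma adjusted p = 0.0267). This call was lost with the replicate number as a block (adjusted p = 0.112) and without any one library except WT 1 (adjusted p = 0.0589 to 0.109). Some Tfeb transcript was thus present in TFEB-/-, and a single value for the whole gene does not show which part remains. Markers of heart muscle cells were abundant in every library, with the 12 genes from Myh6 to Mybpc3 summing to 79446 to 102260 CPM in TFEB-/- and 64626 to 86685 CPM in WT. On the deposited scale, summed markers of 3 other cell types did not overlap between the groups: macrophages (12 genes, 45 to 57 CPM in TFEB-/- and 22 to 34 CPM in WT, none called and none at 0), fibroblasts (12 genes, 379 to 467 CPM in TFEB-/- and 268 to 303 CPM in WT, with 2 called higher, Gsn and Pdgfra, the second at 3 CPM in each TFEB-/- library and 2 CPM in each WT library) and smooth muscle with pericytes (10 genes, 568 to 579 CPM in TFEB-/- and 385 to 474 CPM in WT, with 1 called higher). Much of the fibroblast sum was Gsn, at 202, 245 and 237 CPM in TFEB-/- and 139, 136 and 129 CPM in WT. Over the 12 fibroblast markers the median log2 fold change was 0.27, near the 0.24 of all tested genes, and Col3a1 was below 0 (-0.23). The median was 0.60 over the 11 macrophage markers tested, above the 0.24 of all tested genes, and -0.15 over the 12 endothelial markers. The summed markers of endothelium overlapped (449 to 563 CPM in TFEB-/- and 511 to 588 CPM in WT), and so did those of blood (6 to 10 CPM in TFEB-/- and 5 to 37 CPM in WT, with 5 of 10 genes at 0). After median-ratio scaling, which is described next, the sums overlapped for macrophages (40.5 to 56.0 in TFEB-/- and 21.6 to 41.6 in WT) and fibroblasts (320.1 to 459.2 in TFEB-/- and 286.7 to 353.6 in WT, with none called). On that scale they stayed apart for smooth muscle with pericytes (479.7 to 569.3 in TFEB-/- and 446.1 to 471.0 in WT), and endothelial markers were lower in every TFEB-/- library (379.2 to 529.6 in TFEB-/- and 546.7 to 666.7 in WT, with 1 of 12 called lower, Cldn5). Much of the smooth muscle and pericyte sum was Acta2 and Abcc9. Acta2 was at 161, 233 and 185 CPM in TFEB-/- and 66, 118 and 70 CPM in WT. The gene of that list called higher was Cspg4, at 29, 21 and 21 CPM in TFEB-/- and 10, 12 and 11 CPM in WT. Its log2 fold change was 1.06 (limma adjusted p = 0.0374), and it was also called higher after median-ratio scaling (adjusted p = 0.0239). Myh11, Rgs5, Pdgfrb, Kcnj8 and Notch3 of that list had log2 fold changes below 0 on the deposited scale. The median over its 10 genes was 0.02, below the 0.24 of all tested genes. The part of these cell types in the values below was not tested. Transcripts of the mitochondrial genome took 22.2%, 30.3% and 25.3% of the TFEB-/- libraries and 30.7%, 33.9% and 44.6% of the WT libraries. Since CPM sum to a fixed total, a smaller mitochondrial share leaves more of it to other genes, and the median over all tested genes was a log2 fold change of 0.24. The part of the mitochondrial share in the values of single genes was not tested beyond changes of scale. These were the median-ratio scaling given here and CPM without mitochondrial transcripts, given in the last section. After scaling each library by its median ratio to the geometric mean of all libraries, the median over all tested genes was 0.01. Values after this scaling are given beside the deposited scale where a call or the separation of the groups differs.

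No vacuolar ATPase or lysosomal membrane gene passed the threshold, neither on the deposited scale nor after median-ratio scaling. With a limma threshold of 0.05 for the adjusted p, 0 of the 31 members were higher and 0 lower, where 3.92% of all tested genes were higher and 0.523% lower. At an unadjusted p below 0.05, 8 members had higher values in TFEB-/- (25.8%, against 21.1% of all tested genes) and 1 had lower values (3.23%, against 2.30%). The 8 were Atp6v0a1, Atp6v0e2, Atp6v1a, Atp6v1c1, Atp6v1d, Atp6ap1, Npc2 and Lamtor4, and the 1 was Lamp2. The log2 fold change was above 0 in 27 of the 31 (87.1%, against 79.8% of all tested genes), and the median over the members was 0.24, the same as over all tested genes. The libraries of the groups did not overlap in 11 members with higher values (35.5%, against 21.2%) and in 1 with lower values (against 2.28%). In a bulk cell preparation, fewer cells of a type and less RNA per cell cannot be told apart.

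The sum of the 31 members was 2204, 1978 and 2025 CPM in TFEB-/- and 1835, 1890 and 1499 CPM in WT. WT 3, which also had the largest mitochondrial share, was the lowest of the 6 libraries in 23 of the 31 members, and TFEB-/- 1, with the smallest mitochondrial share, was the highest in 16. After median-ratio scaling WT 3 was lowest in 7 members and TFEB-/- 1 highest in 5, and the sums were 1861, 1945 and 1905 in TFEB-/- against 1803, 2022 and 1834 in WT, which overlap. On that scale 16 of the 31 members lay above 0 (51.6%, against 50.7% of all tested genes). The counts at an unadjusted p below 0.05 became 4 with higher values (12.9%, against 12.5%) and 3 with lower values (9.68%, against 9.79%). The groups did not overlap in 6 members with higher values (19.4%, against 14.3%) and 4 with lower values (12.9%, against 11.8%). None was called, where 3.87% of all tested genes were higher and 1.61% lower.

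**Figure D2:**
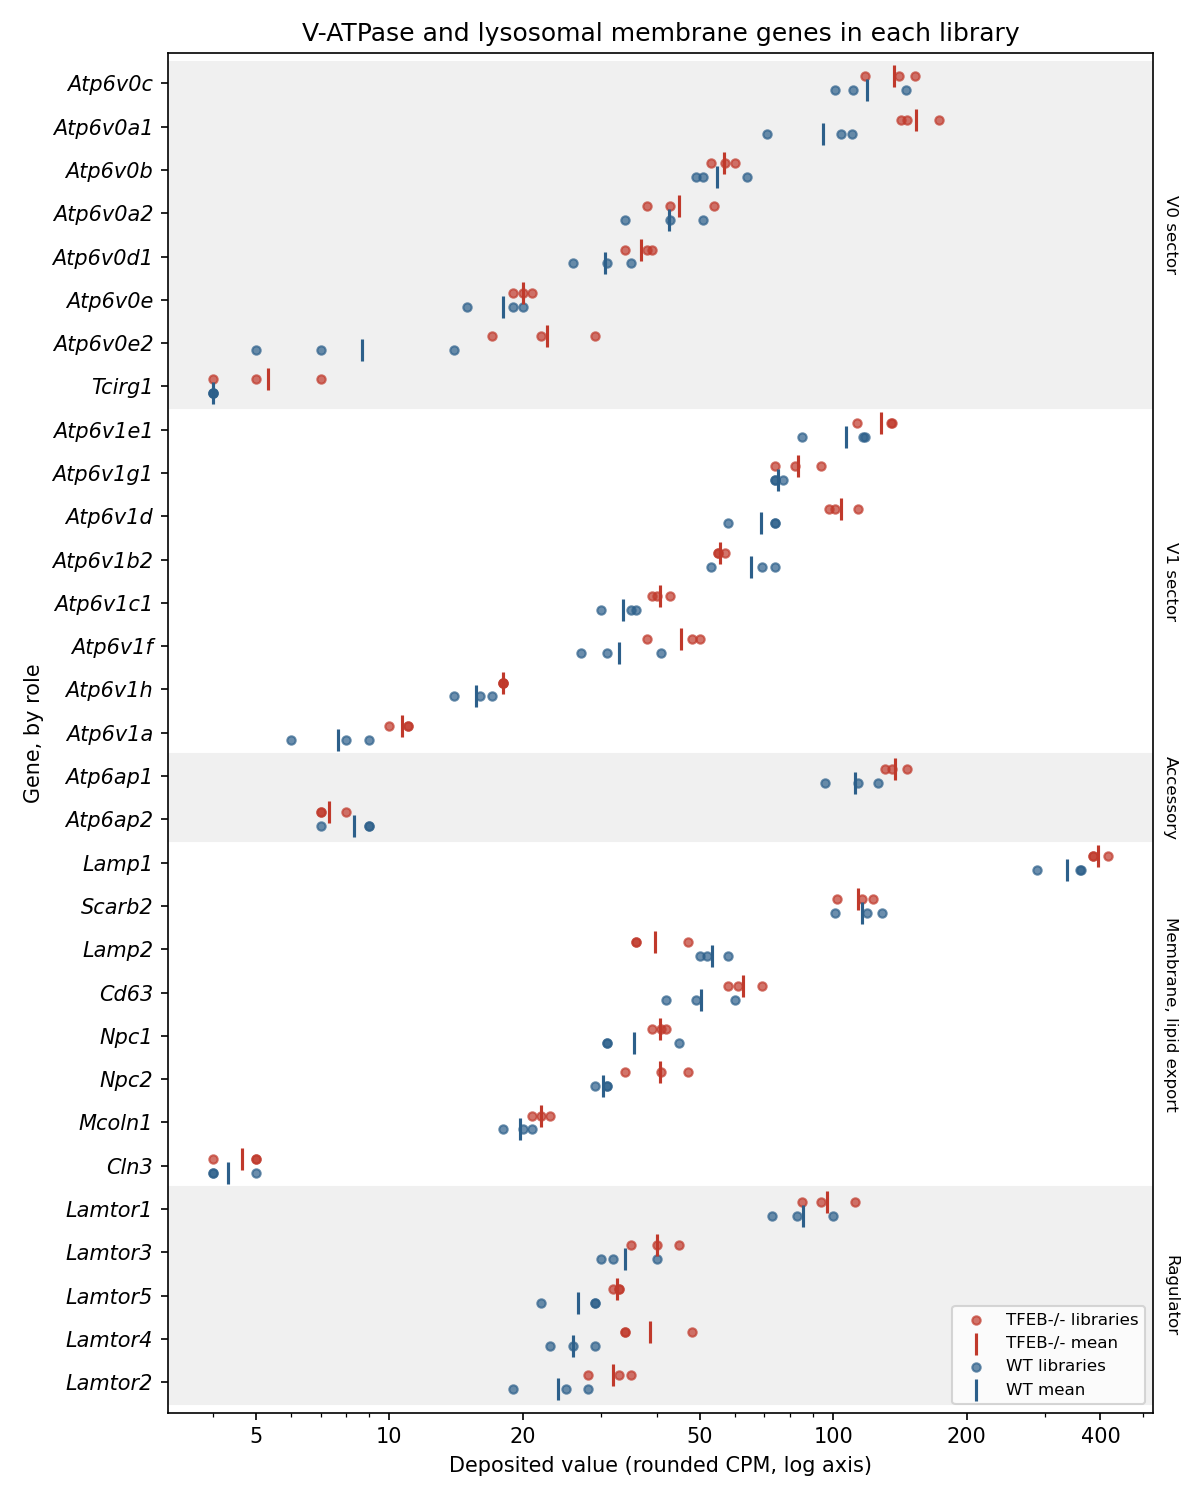
CPM of the 31 members in each of the 6 libraries on a log10 axis, grouped by role, with TFEB-/- points above WT points and short lines at the means. In 11 genes every TFEB-/- point lies to the right of every WT point and in 1, Lamp2, to the left, and the ratio of the means is largest for Atp6v0e2, at 17 to 29 CPM in TFEB-/- and 5 to 14 CPM in WT.

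**Figure D3:**
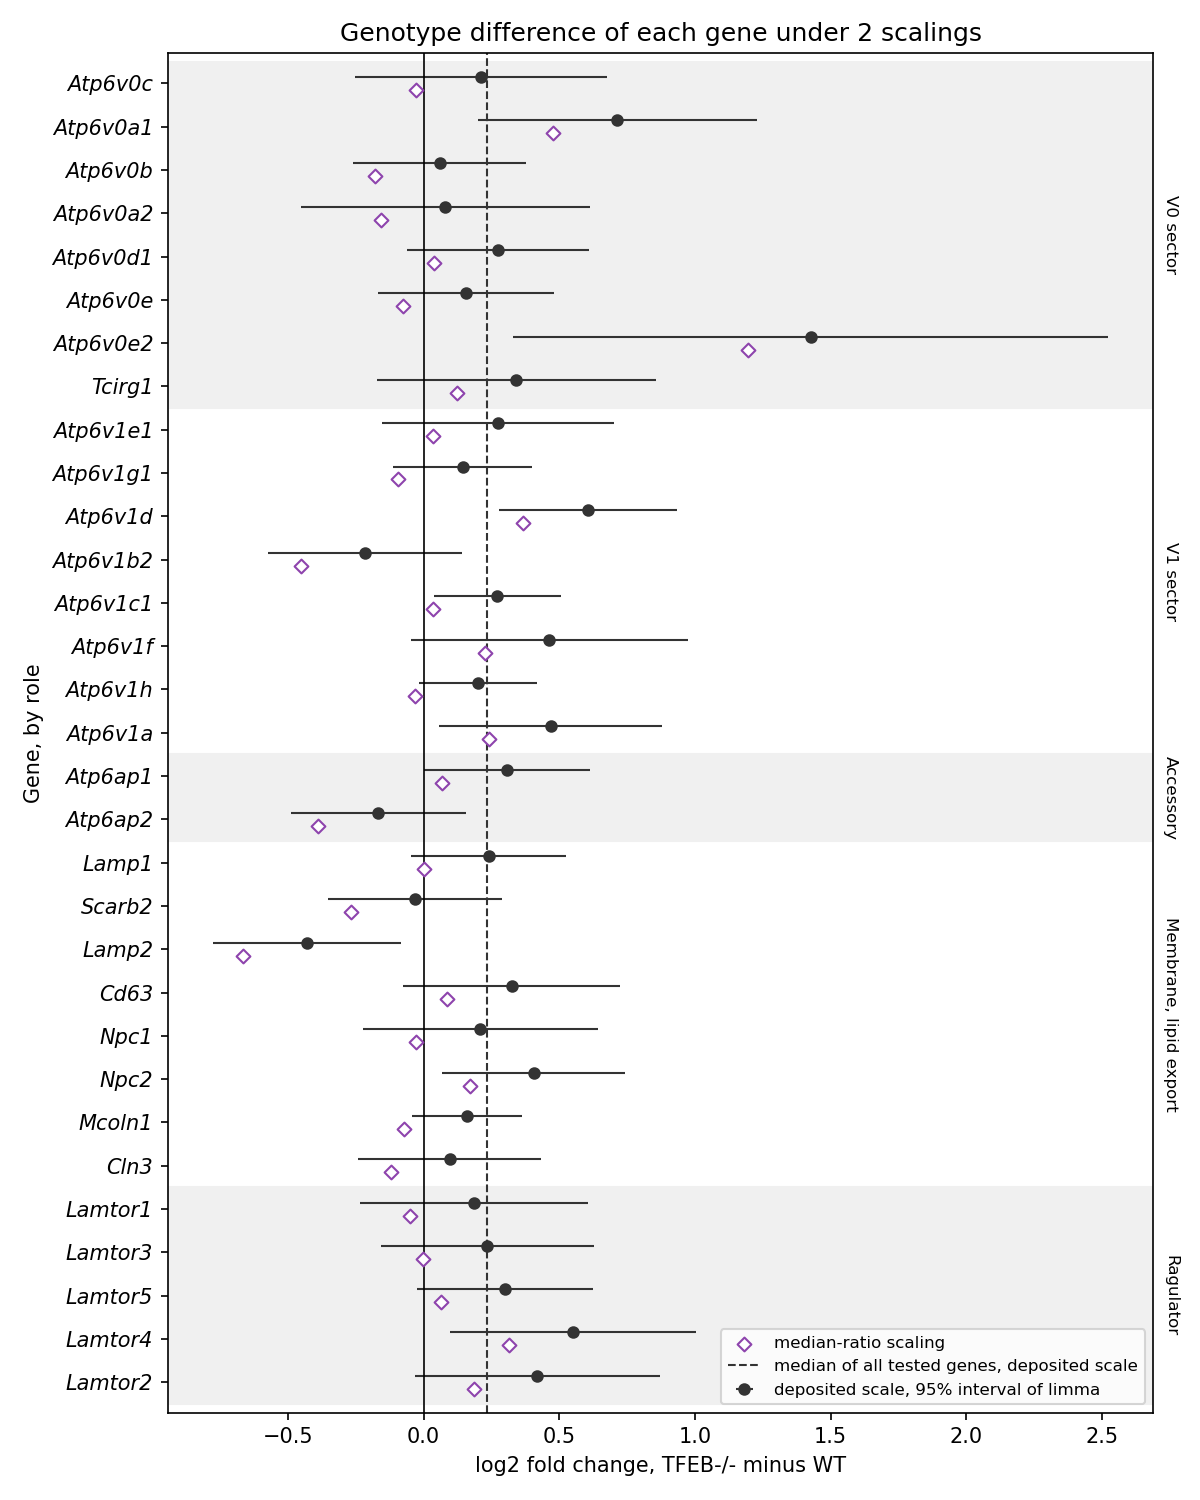
Log2 fold change of each member, TFEB-/- minus WT, with 95% intervals from limma on the deposited scale (filled circles), and the value after median-ratio scaling (open diamonds). Vertical lines mark 0 (solid) and the median of all tested genes on the deposited scale, 0.24 (dashed). Atp6v0e2 has the highest value at 1.43 and Lamp2 the lowest at -0.43, and the median-ratio values lie to the left by about the same step.

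In the V0 sector, the subunit a that forms the proton half-channels has 3 genes among the members, and 1 of them was apart between the groups. Atp6v0a1 (GRCm38 chromosome 11, 101009452 to 101063719, plus strand) measured 173, 142 and 147 CPM in TFEB-/- and at 110, 104 and 71 CPM in WT. Every TFEB-/- library lay above every WT library, with means of 154 ± 16.6 and 95 ± 21 CPM in TFEB-/- and WT, a ratio of 1.62. The log2 fold change was 0.71 (SE 0.20, unadjusted p = 0.0163, limma adjusted p = 0.127), and 0.48 after median-ratio scaling (adjusted p = 0.0601). Its paralog Atp6v0a2, an isoform known for its place in the Golgi and endosomes, was at 54, 43 and 38 CPM in TFEB-/- and at 51, 43 and 34 CPM in WT. The groups overlapped almost completely (log2 fold change 0.08). Tcirg1, the a3 isoform of osteoclasts, was the least abundant V0 gene, at 7, 4 and 5 CPM in TFEB-/- and at 4 CPM in each WT library, where 1 rounding step is a large part of the value.

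The small subunit e is encoded by Atp6v0e and Atp6v0e2. Atp6v0e2 (chromosome 6, 48537615 to 48541801, plus strand) was found at 29, 17 and 22 CPM in TFEB-/- and at 5, 14 and 7 CPM in WT. The groups did not overlap, but the lowest TFEB-/- library and the highest WT library were only 17 and 14 CPM. The means were 22.7 ± 6.03 CPM in TFEB-/- and 8.67 ± 4.73 CPM in WT, a ratio of 2.62, and the log2 fold change of 1.43 was the largest of the 31 members (SE 0.42, unadjusted p = 0.0208, limma adjusted p = 0.142). Atp6v0e was at 19, 21 and 20 CPM in TFEB-/- and at 19, 20 and 15 CPM in WT, which overlap (log2 fold change 0.16, and -0.08 after median-ratio scaling).

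The proteolipid ring and its adaptor were close in both groups. Atp6v0c, the main ring subunit, was at 141, 118 and 153 CPM in TFEB-/- and at 101, 146 and 111 CPM in WT. WT 2 lay inside the TFEB-/- range (log2 fold change 0.21, 95% interval -0.25 to 0.67). Reads of this gene could be shared with a processed pseudogene, Atp6v0c-ps2, that matches it over 465 bases at 99.8% identity and was listed at 44, 38 and 25 CPM in TFEB-/- and 27, 21 and 16 CPM in WT. Their sums, at 185, 156 and 178 CPM in TFEB-/- and 128, 167 and 127 CPM in WT, overlapped as well. The second ring subunit Atp6v0b averaged 56.7 ± 3.51 CPM in TFEB-/- and 54.7 ± 8.14 CPM in WT, and Atp6v0d1, which couples the ring to the stalk, averaged 37.0 ± 2.65 CPM in TFEB-/- and 30.7 ± 4.51 CPM in WT. Neither pair was apart by library.

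In the V1 sector, the stalk subunit D had the smallest p of all 31 members. Atp6v1d (chromosome 12, 78840725 to 78861638, minus strand) was at 114, 101 and 98 CPM in TFEB-/- and at 74, 74 and 58 CPM in WT. The lowest TFEB-/- library, at 98 CPM, lay above the highest WT libraries, at 74 CPM, with means of 104.3 ± 8.50 CPM in TFEB-/- and 68.7 ± 9.24 CPM in WT, a ratio of 1.52. The log2 fold change was 0.61 (SE 0.13, unadjusted p = 0.0053, limma adjusted p = 0.0746), and 0.37 after median-ratio scaling (adjusted p = 0.0585). It passed the threshold only with a filter of 5 CPM (adjusted p = 0.0497) and with robust variance estimates (adjusted p = 0.0405), among the alternatives tried.

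The catalytic head of V1 alternates subunits A and B. Atp6v1a, subunit A, where ATP is split, was at 11, 11 and 10 CPM in TFEB-/- and at 9, 8 and 6 CPM in WT. The groups did not overlap, by a margin of 1 CPM (log2 fold change 0.47, SE 0.16, unadjusted p = 0.0328, limma adjusted p = 0.177). Subunit B, Atp6v1b2, had a log2 fold change below 0, at 55, 57 and 55 CPM in TFEB-/- and 69, 74 and 53 CPM in WT. WT 3 lay below the TFEB-/- range, so the groups overlapped on the deposited scale (log2 fold change -0.22, limma adjusted p = 0.388). After median-ratio scaling they did not (log2 fold change -0.45, unadjusted p = 0.0055, adjusted p = 0.0736). Within a library, Atp6v1d stood at 2.07, 1.77 and 1.78 times the CPM of Atp6v1b2 in TFEB-/- and at 1.07, 1 and 1.09 times in WT. This ratio does not depend on the scaling between libraries, and the pair was picked out after the values were seen.

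The remaining V1 subunits build the stators, the regulatory cap and part of the stalk. Atp6v1c1, subunit C, which clamps V1 onto V0, was at 39, 43 and 40 CPM in TFEB-/- and at 36, 35 and 30 CPM in WT, without overlap (log2 fold change 0.27, unadjusted p = 0.0313, limma adjusted p = 0.174). After median-ratio scaling its log2 fold change was 0.04 and the groups overlapped. The most abundant V1 transcript by CPM was Atp6v1e1, a stator subunit, at 135, 136 and 113 CPM in TFEB-/- and 117, 118 and 85 CPM in WT, which overlap. Its stator partner Atp6v1g1 averaged 83.3 ± 10.1 CPM in TFEB-/- and 75 ± 1.73 CPM in WT, the stalk subunit Atp6v1f 45.3 ± 6.43 CPM in TFEB-/- and 33.0 ± 7.21 CPM in WT, and the cap subunit Atp6v1h 18 ± 0 CPM in TFEB-/- and 15.7 ± 1.53 CPM in WT. Atp6v1h was at 18 CPM in each TFEB-/- library, above 16, 17 and 14 CPM in WT, a margin of 1 CPM that was lost after median-ratio scaling, where the groups overlapped. The log2 fold changes of these 3 genes were 0.14 to 0.46, with adjusted p-values in limma of 0.237 to 0.412.

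The accessory subunits differed from each other in sign. Atp6ap1, which helps V0 to assemble, was at 147, 131 and 136 CPM in TFEB-/- and at 126, 114 and 96 CPM in WT. The groups did not overlap (log2 fold change 0.31, SE 0.12, unadjusted p = 0.0497, limma adjusted p = 0.214), and after median-ratio scaling the log2 fold change was 0.07. Atp6ap2, also known as the prorenin receptor, was at 7, 8 and 7 CPM in TFEB-/- and at 9, 9 and 7 CPM in WT, which overlap (log2 fold change -0.17, and -0.39 after median-ratio scaling, where they did not overlap, adjusted p = 0.152).

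Of the lysosomal membrane proteins, Lamp2 had lower values in TFEB-/- and Lamp1 did not. Lamp2 (chromosome X, 38401357 to 38456454, minus strand), a glycoprotein needed for the fusion of autophagosomes with lysosomes in muscle, was at 36, 47 and 36 CPM in TFEB-/- and at 58, 50 and 52 CPM in WT. The highest TFEB-/- library lay 3 CPM below the lowest WT library, with means of 39.7 ± 6.35 CPM in TFEB-/- and 53.3 ± 4.16 CPM in WT, a ratio of 0.744. The log2 fold change was -0.43 (SE 0.13, unadjusted p = 0.0243, limma adjusted p = 0.154), and -0.67 after median-ratio scaling (adjusted p = 0.063). Lamp1, the most abundant of the 31 members by CPM, was at 417, 385 and 384 CPM in TFEB-/- and at 360, 361 and 288 CPM in WT. Its groups did not overlap on the deposited scale (log2 fold change 0.24, limma adjusted p = 0.256), and after median-ratio scaling they did, with a log2 fold change of 0.00. Lamp1 shares 249 exon bases with Grtp1 on the other strand, which was listed at 2 CPM in each TFEB-/- library and 1 CPM in each WT library.

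Of the cholesterol export pair, Npc2 was apart between the groups on the deposited scale and Npc1 was not, while the share of Npc2 within the pair, tested further below, overlapped. Npc2, the soluble carrier that takes cholesterol from the lumen, was at 47, 34 and 41 CPM in TFEB-/- and at 31, 31 and 29 CPM in WT, without overlap (log2 fold change 0.41, SE 0.13, unadjusted p = 0.0274, limma adjusted p = 0.164). After median-ratio scaling the groups overlapped (log2 fold change 0.17). Npc1, the membrane protein that receives it, was at 41, 39 and 42 CPM in TFEB-/- and at 45, 31 and 31 CPM in WT, where WT 1 was the highest of the 6 libraries. It shares 511 exon bases with Rmc1 on the other strand, listed at 26, 26 and 38 CPM in TFEB-/- and 24, 27 and 22 CPM in WT, and whether strand was used in counting is not given in the sources used here. Scarb2, the receptor that carries glucocerebrosidase to lysosomes, was at 102, 123 and 116 CPM in TFEB-/- and 129, 119 and 101 CPM in WT. These overlap, with a log2 fold change of -0.03. After median-ratio scaling every TFEB-/- library lay below every WT library (log2 fold change -0.27, unadjusted p = 0.0798, limma adjusted p = 0.282). The tetraspanin Cd63 averaged 62.7 ± 5.69 CPM in TFEB-/- and 50.3 ± 9.07 CPM in WT, and the calcium channel Mcoln1 averaged 22 ± 1 CPM in TFEB-/- and 19.7 ± 1.53 CPM in WT. Both overlapped between the groups. Cln3, the protein lost in juvenile Batten disease, was the least abundant of these genes, at 5, 4 and 5 CPM in TFEB-/- and 4, 5 and 4 CPM in WT.

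All 5 Ragulator subunits had log2 fold changes above 0, from 0.19 to 0.55, with a median of 0.30, against 0.24 over all tested genes, of which 79.8% lay above 0. After median-ratio scaling 3 of the 5 lay above 0, with a median of 0.06. Lamtor4 (chromosome 5, 138255482 to 138259398, plus strand), one of the roadblock-fold subunits, measured 48, 34 and 34 CPM in TFEB-/- and at 29, 26 and 23 CPM in WT. The groups did not overlap, with TFEB-/- 1 well above the other libraries (38.7 ± 8.08 CPM in TFEB-/- and 26.0 ± 3 CPM in WT, log2 fold change 0.55, SE 0.18, unadjusted p = 0.0267, limma adjusted p = 0.161). Lamtor5 was at 33, 32 and 33 CPM in TFEB-/- and at 29, 29 and 22 CPM in WT, also without overlap on the deposited scale (adjusted p = 0.235) but with overlap after median-ratio scaling, and the least abundant by CPM in WT was Lamtor2, at 35, 28 and 33 CPM in TFEB-/- and 25, 28 and 19 CPM in WT. Lamtor1, the lipid-anchored subunit that holds the complex on the membrane, was the most abundant by CPM, at 112, 85 and 94 CPM in TFEB-/- and 83, 100 and 73 CPM in WT. WT 2 lay within the TFEB-/- range, and the log2 fold change was -0.05 after median-ratio scaling. Lamtor1 shares 600 exon bases with Lrrc51 on the other strand, listed at 7, 4 and 6 CPM in TFEB-/- and 3, 2 and 2 CPM in WT. Lamtor3 averaged 40 ± 5 CPM in TFEB-/- and 34.0 ± 5.29 CPM in WT, and the processed pseudogene Gm5900, 99.5% identical over 375 bases, was at 6, 11 and 5 CPM in TFEB-/- and 5, 10 and 4 CPM in WT.

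The make-up of paralog families was compared within each library, since a share does not depend on how libraries are scaled. Npc1 and Npc2, which are not paralogs, were compared in the same way as a pair. CPM was divided by the median length of the annotated coding transcripts (GENCODE M21), and each gene was given as a percent of its family or pair. Of subunit a, Atp6v0a1 held 78.1%, 79.6% and 81.1% in TFEB-/- and 72.4%, 74.1% and 70.4% in WT. All TFEB-/- shares lay above all WT shares, by 7.36 percentage points on average (exact two-sided permutation p = 0.1, 0.15 after adjustment over the 6 shares compared). The share of Atp6v0a2 was 17.4%, 17.2% and 15.0% in TFEB-/- and 23.9%, 21.9% and 24.04% in WT, a difference of -6.76 points. With 3 against 3 libraries 0.1 is the smallest p this test can give, so none of these shares can reach 0.05. Tcirg1 took 3.83 ± 0.648% in TFEB-/- and 4.43 ± 1.007% in WT, which overlap (exact permutation p = 0.5).

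Of subunit e, Atp6v0e2 held 40.9%, 26.9% and 33.3% in TFEB-/- and 10.7%, 24.1% and 17.5% in WT, a difference of 16.3 points without overlap (exact permutation p = 0.1, adjusted 0.15). Its share depends on the length used for Atp6v0e, and with the longest annotated transcripts it was 63.3 ± 7.29% in TFEB-/- and 41.3 ± 11.6% in WT. Lamp2 held 8.10%, 11.1% and 8.73% of the Lamp1 and Lamp2 total in TFEB-/- and 14.1%, 12.4% and 15.6% in WT, a difference of -4.72 points (exact permutation p = 0.1, adjusted 0.15). These shares did not overlap either. The share of Npc2 with Npc1 was 61.1 ± 3.26% in TFEB-/- and 57.7 ± 4.87% in WT, where the libraries overlapped (exact permutation p = 0.5).

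**Figure D4:**
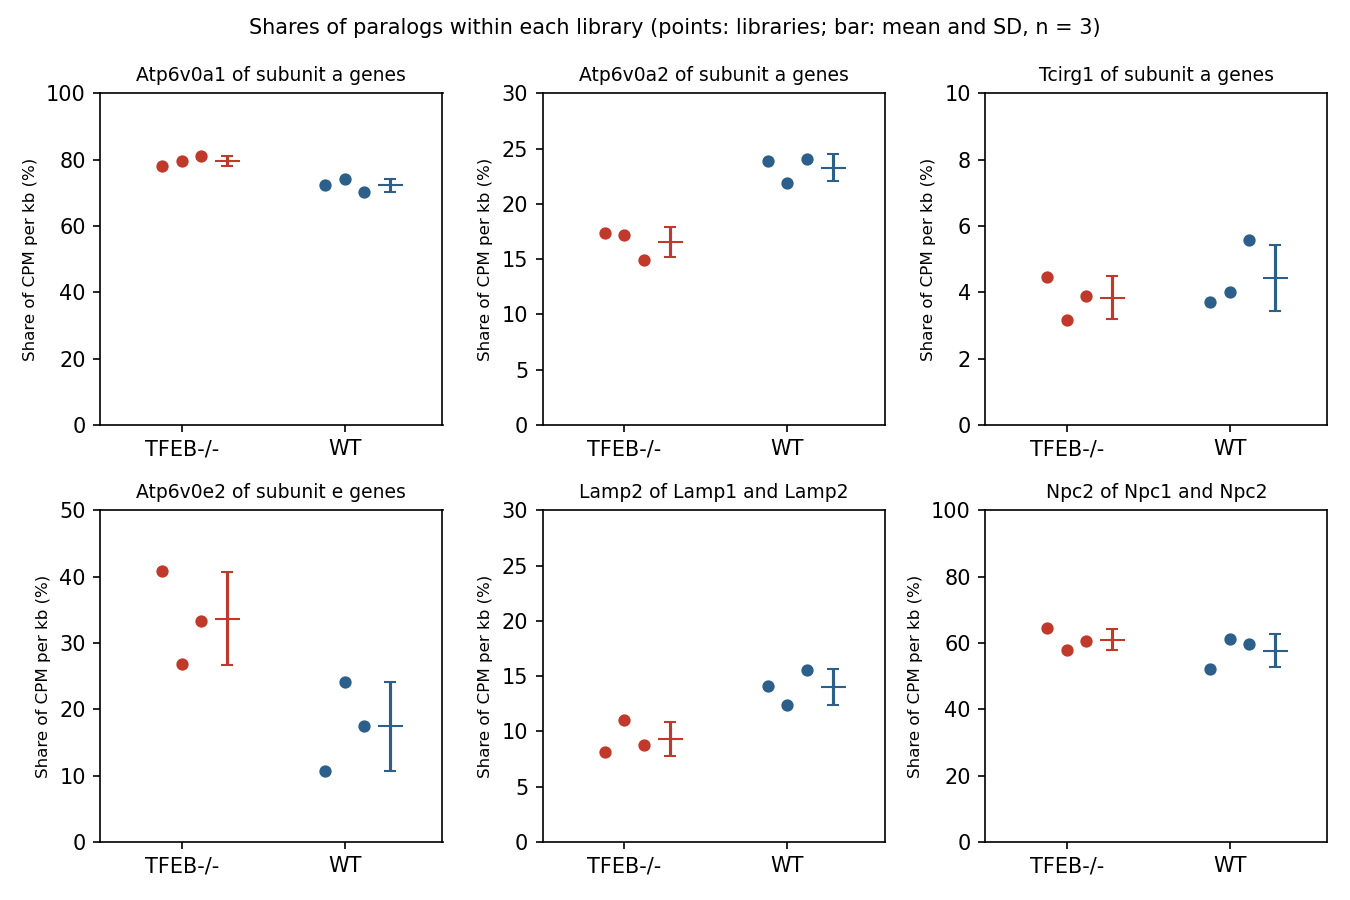
Share of each gene in its paralog family, or for Npc2 in its pair with Npc1, in percent of CPM per kilobase. Each point is 1 library, with TFEB-/- left of WT and the mean and SD beside the points. The points of the groups are apart for Atp6v0a1, Atp6v0a2, Atp6v0e2 and Lamp2, and they overlap for Tcirg1 and Npc2.

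Levels of the subunits relative to each other were read as CPM per kilobase of the median coding transcript. These levels, like the paralog shares, assume that the deposited values were not already divided by length, which is not stated. In the V0 sector Atp6v0c had the highest level, at 172.5 ± 22.3 CPM per kilobase in TFEB-/- and 149.9 ± 29.7 in WT, followed by Atp6v0b at 68.8 ± 4.26 in TFEB-/- and 66.3 ± 9.88 in WT. The ring that these genes encode holds several copies of its proteolipids. In WT the next genes by median length were Atp6v0a1 (24.9 ± 5.51), Atp6v0e (23.3 ± 3.43) and Atp6v0d1 (18.8 ± 2.77). These SDs are between libraries and do not measure the order of genes within a library. In every WT library Atp6v0d1 was the lowest of them. In TFEB-/- Atp6v0a1, at 40.4 ± 4.36 CPM per kilobase, stood above both Atp6v0e (25.9 ± 1.30) and Atp6v0d1 (22.7 ± 1.62). The place of Atp6v0e rests on the length: with the longest transcript it stood at 7.11 ± 0.356 in TFEB-/- and 6.40 ± 0.941 in WT, below Atp6v0a1 at 38.4 ± 4.15 in TFEB-/- and 23.7 ± 5.24 in WT. Tcirg1 was the lowest, at 1.97 ± 0.564 CPM per kilobase in TFEB-/- and 1.48 in each WT library.

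In the V1 sector Atp6v1e1 had the highest level, at 189.3 ± 19.2 CPM per kilobase in TFEB-/- and 157.8 ± 27.8 in WT. Of the head subunits, Atp6v1b2 stood at 19.7 ± 0.409 CPM per kilobase in TFEB-/- and 23.1 ± 3.88 in WT, while Atp6v1a stood at 11.9 ± 0.646 in TFEB-/- and 8.58 ± 1.71 in WT. These proteins enter the head in equal numbers. The level of Atp6v1a depends strongly on the length used: its coding transcripts have a median of 0.894 kilobases and a longest form of 4.23 kilobases, with which it stood at 2.52 in TFEB-/- and 1.81 in WT, the lowest of V1. By median length it was the lowest of V1 in WT, and in TFEB-/- Atp6v1h was lower, at 10.8. Across all 31 members the WT order by median and by longest transcript had a Spearman rho of 0.941, as a description over genes that share the same libraries. Among the membrane proteins Lamp1 was highest by median length, at 177.4 ± 8.42 CPM per kilobase in TFEB-/- and 150.9 ± 18.8 in WT, and Cln3 lowest, at 5.60 ± 0.693 in TFEB-/- and 5.20 ± 0.693 in WT.

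Members with and without the promoter motif were set side by side. The 9 with TCACGTG had a median log2 fold change of 0.19, and 2 of them, Atp6v1a and Lamtor4, had higher values at an unadjusted p below 0.05. The 15 without it had a median of 0.32, with 5 higher and 1 lower at that threshold. Of all tested genes with a promoter, 24.4% of those with the motif and 21.0% of those without it had higher values at an unadjusted p below 0.05. After median-ratio scaling the medians of the members were -0.05 with the motif and 0.09 without it. Over all tested genes with a promoter the medians were 0.24 for the 659 genes with the motif and 0.23 for the 8740 without. Of those with the motif 4.25% were called higher and 0.759% lower, and of those without it 3.86% were called higher and 0.515% lower. Of the 7 members whose groups were apart on both scales, Atp6v1a and Lamtor4 hold the motif in these windows, and Atp6v0a1, Atp6v0e2, Atp6v1d, Atp6ap1 and Lamp2 do not. The only Atp6v0a1 window, 101010148 to 101010447, lies inside the gene as annotated. The annotated gene start at 101009452 was thus not searched. The only windows of Atp6v0e and Atp6v1a, which hold the motif, also lie inside the genes as annotated. So do those of Scarb2 and Cd63, which do not hold it. A gene was counted as a holder if any of its windows held the motif. For Cln3 the motif was in the window 126583187 to 126583486, inside the gene. It was absent from the Cln3 window at the annotated gene start, 126585768 to 126586067.

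Other genes around the pump and the lysosomal membrane were read from lists chosen by function. Of 8 further subunit isoforms and relatives, 6 were listed at 0 in every library, among them Atp6v0a4 and Atp6v1b1, isoforms of the kidney, and Atp6v0d2 of osteoclasts. The exception that could be tested was Atp6v1g2, the neuronal form of subunit G, at 5, 4 and 3 CPM in TFEB-/- and 3, 2 and 2 CPM in WT (log2 fold change 0.66, limma adjusted p = 0.179). Of 14 assembly and regulation factors 12 were tested, with 0 called and 2 higher at an unadjusted p below 0.05 (21.1% of all tested genes were). The most abundant were Rnasek, a small protein that binds the pump, at 55, 48 and 51 CPM in TFEB-/- and 38, 50 and 36 CPM in WT, and Tmem9b, at 26, 28 and 25 CPM in TFEB-/- and 27, 30 and 21 CPM in WT. Both overlapped.

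Of 24 lysosomal transporters and channels 21 were tested. None was called in limma and 7 had higher values at an unadjusted p below 0.05 (21.1% of all tested genes did). Among the alternatives tried, the peptide transporter Abcb9 was called higher with a filter of 5 CPM (adjusted p = 0.04) and with robust variance estimates (adjusted p = 0.0336), the amino acid transporter Slc38a7 with robust variance estimates (adjusted p = 0.0478), and the sialic acid exporter Slc17a5 without WT 2 (adjusted p = 0.0488). The calcium and sodium channel Tpcn1 was at 56, 43 and 47 CPM in TFEB-/- and at 43, 30 and 31 CPM in WT (log2 fold change 0.49, limma adjusted p = 0.2), where TFEB-/- 2 and WT 1 were both at 43 CPM. Sidt2, a transmembrane protein linked to nucleic acid uptake into lysosomes, was at 66, 50 and 56 CPM in TFEB-/- and 64, 53 and 40 CPM in WT, which overlap. Of 21 other lysosomal membrane proteins 19 were tested, with 0 called and 4 higher at an unadjusted p below 0.05, where 21.1% of all tested genes were higher. The most abundant of them were Laptm4a, at 225, 242 and 228 CPM in TFEB-/- and 236, 254 and 213 CPM in WT, and Plekhm2, which links lysosomes to kinesin, at 173, 147 and 167 CPM in TFEB-/- and 131, 176 and 136 CPM in WT. Both overlapped between the groups.

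All 16 Rag GTPases and partners of Ragulator were tested, with 0 called, 3 higher and 1 lower at an unadjusted p below 0.05. Of all tested genes 21.1% were higher and 2.30% lower at that threshold. Rragd, the Rag GTPase known as a target of TFEB and its relatives, was at 78, 88 and 84 CPM in TFEB-/- and at 70, 68 and 57 CPM in WT. All TFEB-/- libraries lay above all WT libraries on the deposited scale (log2 fold change 0.36, SE 0.10, limma adjusted p = 0.13). After median-ratio scaling the groups overlapped, with a log2 fold change of 0.12. Bloc1s1, a subunit shared by BLOC-1 and BORC, was at 89, 66 and 80 CPM in TFEB-/- and 60, 71 and 51 CPM in WT, which overlap. After median-ratio scaling 1 gene of this list was called lower, Fnip2, a partner of folliculin (log2 fold change -0.89, adjusted p = 0.0282). Its values were low, at 6, 4 and 5 CPM in TFEB-/- and 9, 10 and 6 CPM in WT. On the deposited scale the groups met at 6 CPM and it was not called (limma adjusted p = 0.189). Among the TFEB relatives, Mitf measured 20, 19 and 20 CPM in TFEB-/- and 28, 21 and 24 CPM in WT (log2 fold change -0.29, limma adjusted p = 0.225), and Tfe3 was at 18, 10 and 12 CPM in TFEB-/- and 12, 9 and 10 CPM in WT, while Tfec was listed at 0 in all 6 libraries.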

How the data were processed

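Messenger RNA of 3 TFEB-/- and 3 WT cardiomyocyte libraries was sequenced from 400 ng of total RNA with a stranded kit in pairs of 75 bases, per the labels' protocols. The authors deposited 1 table whose name gives kallisto and CPM. Its values are a score, CPM that the authors rounded to whole numbers, since each library sums to 999505 to 999655 and no value has decimals. The submitters' processing notes also name STAR, HISAT2, Salmon, RSEM, StringTie, DESeq2, edgeR and GRCm38, with no roles. Scaling between libraries or by length is not stated, depth is unknown, and a rounding step of 0.5 CPM either way limits low values.

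From the deposited CPM, log2(CPM + 0.5) was fitted with limma 3.58.1 (R 4.3.3, statmod 1.5.0; lmFit, eBayes with a trend, two-sided, 4.88 total degrees of freedom) on the 12437 genes that reached 1 CPM in 3 or more libraries, with Benjamini-Hochberg adjustment over all of them and a threshold of 0.05. The fit was tested on simulated data. Of all genes called, 164 had no spread in either group. Entries that share a symbol were summed. Shares of paralogs, and of Npc2 in its pair with Npc1, were compared by exact two-sided permutation. Gene positions and lengths came from GENCODE M21 and promoters from RefSeq GRCm38.p6. The alternatives were another pseudocount (1 CPM), no filter, a filter of 5 CPM, median-ratio scaling, CPM without mitochondrial transcripts, robust variance estimates, the replicate number as a block, each library left out, the longest transcript length and other motif lengths.

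Values in every library were to be given for members past the threshold, at an unadjusted p below 0.05, and the most and least abundant of each class. The same held for paralogs and for the pair Npc1 and Npc2. For each related list they were to be given for the genes called or the 2 most abundant. Named beyond this rule were Fnip2, Abcb9, Slc38a7, Slc17a5, Mitf, Tfe3 and some markers. These markers were Gsn, Pdgfra, Col3a1, Acta2, Abcc9, Cspg4, Myh11, Rgs5, Pdgfrb, Kcnj8, Notch3 and Cldn5. The ratio of Atp6v1d to Atp6v1b2 and the library values of a few further members were also added. All of these were chosen after their values were seen. The members, lists and tests were chosen with earlier results of these data known.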

Additional observations from a re-analysis of the deposited data

How the results depend on the processing

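None of the 31 members was called under the alternatives tried, with these exceptions: with a filter of 5 CPM 2 were higher (Atp6v0e2, adjusted p = 0.0294, and Atp6v1d, adjusted p = 0.0497), and with robust variance estimates 2 were higher (Atp6v0a1, adjusted p = 0.0443, and Atp6v1d, adjusted p = 0.0405). The cause was not tested. Without any 1 library 0 members were called in limma. The number of members at an unadjusted p below 0.05 was 9 on the deposited scale, and 2 (without TFEB-/- 1) to 9 (without WT 2) when 1 library was left out. It was 3 without TFEB-/- 3. The median of the members relative to all tested genes was then 0.0057 to 0.066. Of all tested genes 487 were higher and 65 lower; leaving out 1 library gave 248 (without WT 3) to 516 (without TFEB-/- 2) higher and 52 to 91 lower. With robust variance estimates 780 were higher. With median-ratio scaling 200 were lower and without mitochondrial transcripts 188. The palindrome TCACGTGA was in 5 members, where TCACGTG was in 9.

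The log2 fold change changed sign in 26 of 402 values of single members, and 19 members kept their sign under every alternative. With median-ratio scaling these were below 0, where the median of all genes moved by -0.23: Atp6v0a2 -0.157, Atp6v0b -0.178, Atp6v0c -0.0271, Atp6v0e -0.0756, Atp6v1g1 -0.0936, Atp6v1h -0.0335, Mcoln1 -0.074, Npc1 -0.0276, Cln3 -0.12, Lamtor1 -0.0517 and Lamtor3 -0.00142. Without mitochondrial transcripts the values were Atp6v0a2 -0.143, Atp6v0b -0.164, Atp6v0c -0.0133, Atp6v0e -0.0626, Atp6v1g1 -0.0800, Atp6v1h -0.0203, Mcoln1 -0.0609, Npc1 -0.014, Cln3 -0.11 and Lamtor1 -0.038. With 1 library left out, Atp6v0a2 ranged over -0.0721 to 0.217 (below 0 without TFEB-/- 1 or WT 3), Atp6v0b over -0.0136 to 0.177 (below 0 without WT 3) and Scarb2 over -0.128 to 0.0476 (above 0 without TFEB-/- 1 or WT 1).

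Same-numbered libraries correlated at 0.148, -0.0724 and 0.189 in their deviations from the group means over 8594 genes, and not every library correlated best with its own number, so the numbers were not taken to pair the samples. With the replicate number as a block, 159 genes were higher and 26 lower, 5 members had an unadjusted p below 0.05 and none was called. Tfeb missed the threshold under the block, with an adjusted p of 0.112, and when any library other than WT 1 was left out (adjusted p = 0.0589 to 0.109). Depth is unknown, and a gap of 1 CPM between the nearest libraries, as in Atp6v1a and Atp6v1h, is within what rounding can make.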
